A study of Mus musculus with 14 samples.

Results

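The 10 genes described here were the Notch receptor genes Notch1, Notch2 and Notch3, the ligand gene Jag1, the DNA-binding factor gene Rbpj, and the target genes Hes1, Hey1, Hey2, Heyl and Nrarp. They were named by symbol and found, 10 of 10, among the 16481 genes listed for pancreatic stellate cells (PSCs) and the 54532 genes listed for livers. The genes were selected on the measured change with Yoda1 in PSCs, where Heyl stood out, and the rest of its pathway was added with those PSC values open, so the PSC values of the 10 genes are given as a description without p-values. Mouse PSCs from 3 preparations were cultured on Matrigel and each preparation was split between the solvent DMSO and Yoda1 at 25 µM, a chemical agonist of the mechanically gated channel PIEZO1. The study's methods give 24 hours of Yoda1 and a supplemental legend gives 72 hours. Livers came from 2 WT mice, which the study's methods describe as Piezo1 fl/fl mice referred to as WT, from 3 mice with a global knockout of the calcium channel TRPV4 (TRPV4-KO), and from 3 WT mice gavaged every 24 hours with the TRPV4 antagonist GSK2193874 (GSK219) at 10 mg/kg. All 8 mice had received 100000 KPCY cells, a mouse pancreatic cancer line that keeps its own TRPV4, in the tail of the pancreas 20 days before the liver was taken, and the study used mice of 8 to 12 weeks. Whether the WT mice received the vehicle of GSK219 is not stated in the sources used here.

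Notch receptors are cell-surface proteins that are activated by ligands on a neighboring cell, such as Jagged and Delta proteins. Binding exposes the receptor to cleavage, first by ADAM proteases and then by gamma-secretase, and the freed intracellular domain enters the nucleus and joins RBPJ and Mastermind coactivators on the promoters of target genes. The Hes and Hey genes encode repressors of the basic helix-loop-helix class, and Nrarp encodes a feedback inhibitor of the pathway. In stellate cells, vascular mural cells and bile ducts the pathway is known for its part in cell differentiation.

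Between 27312894 and 39070539 reads per library were recovered from the PSC values, and between 15567031 and 17395299 reads per library were counted in the livers. Trpv4 had 43 and 53 counts in the WT livers, 15, 5 and 23 in the TRPV4-KO livers and 20, 30 and 36 in the GSK219 livers. The TRPV4-KO livers lay below both WT livers and overlapped the GSK219 livers, and counts over the whole gene do not show which part was deleted. Of the 12 stellate and fibroblast markers, 10 were listed in the PSC table, led by Col1a1, Col1a2 and Col3a1, while Gfap and Lrat, which define quiescent stellate cells, were not listed. Krt8 and Krt18, from the duct and epithelial list, were at deposited values of 31607 and 27385 on average with DMSO. The 6 acinar markers summed to between 1050 and 6195 with DMSO. Which cells held these transcripts was not tested. In the livers 1 mouse per group had Xist reads, so each group held both sexes. TRPV4-KO replicate 3 stood apart, since 722 genes were called between WT and TRPV4-KO without it and 40 with it. With all livers and a term for Xist and Y-linked reads 325 were called. The part of sex in the values of replicate 3 was not tested.

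In PSCs the Hey genes and Jag1 were lower with Yoda1 and the receptor genes were nearly level. The mean of Heyl was 8.40-fold lower on the fitted scale, those of Hey2, Jag1 and Hey1 were between 2.20-fold and 2.42-fold lower, and Hes1, Notch3, Notch2, Notch1 and Rbpj moved by at most 1.17-fold. The deposited values are gene counts divided by a size factor per library and are called normalized read counts here. Fold changes were taken on log2(value + 1), Yoda1 minus DMSO, where negative values are lower with Yoda1, and each is given with its standard error (SE).

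Heyl (ENSMUSG00000032744, chromosome 4 from 123233556 to 123249875 of GRCm38), which encodes a Hey repressor known from vascular smooth muscle, had normalized read counts of 147, 144 and 257 with DMSO in preparations 1, 2 and 3. With Yoda1 the same preparations gave 24.5, 16.5 and 20.05. All 3 Yoda1 libraries lay far below all 3 DMSO libraries. The Yoda1 value was 16.6%, 11.5% and 7.79% of its DMSO partner, and the log2 fold change was -3.07 (SE 0.27). Behind these values stood 118, 128 and 255 reads with DMSO and 26, 20 and 25 reads with Yoda1.

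Hey1 (ENSMUSG00000040289, chromosome 3 from 8663359 to 8667256), a repressor gene that responds to Notch in many tissues, had normalized read counts of 125, 159 and 129 with DMSO and 64.0, 80.6 and 45.7 with Yoda1. The groups did not overlap, and the log2 fold change was -1.13 (SE 0.23). Hey2 (ENSMUSG00000019789, chromosome 10 from 30832359 to 30842801), best known from heart and arteries, had 71.1, 72.9 and 47.4 with DMSO and 37.6, 22.2 and 19.2 with Yoda1. Its highest Yoda1 library stayed below its lowest DMSO library, although it rested on only 24 to 65 reads, and its log2 fold change was -1.28 (SE 0.30). Hes1 (ENSMUSG00000022528, chromosome 16 from 30064384 to 30067796), a widely used Notch target that other signals also control, had 1342, 1457 and 1462 with DMSO and 1186, 1158 and 1305 with Yoda1. The groups were separate but close, with a log2 fold change of -0.22 (SE 0.08). Nrarp had 33.7, 56.1 and 90.8 with DMSO and 28.2, 32.1 and 60.1 with Yoda1. It was lower with Yoda1 within each preparation while the groups overlapped, because the preparations themselves differed, and the log2 fold change was -0.54 (SE 0.45, and 0.13 with the preparation in the model).

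Jag1 (ENSMUSG00000027276, chromosome 2 from 137081456 to 137116644), the Jagged ligand gene, had normalized read counts of 6869, 8598 and 11959 with DMSO and 3559, 3972 and 4549 with Yoda1. Every Yoda1 library was below every DMSO library, at 51.8%, 46.2% and 38.0% of its partner, and the log2 fold change was -1.15 (SE 0.22). Notch3, the receptor typical of mural cells, had 192, 220 and 197 with DMSO and 168, 167 and 192 with Yoda1. The highest Yoda1 value lay just under the lowest DMSO value, and the log2 fold change was -0.21 (SE 0.09). Notch2 had 8322, 8294 and 7496 with DMSO and 8535, 8378 and 7013 with Yoda1. Notch1 had 858, 845 and 880 with DMSO and 805, 801 and 989 with Yoda1. Both receptors overlapped between treatments, and the 95% intervals of their log2 fold changes ran from -0.27 to 0.24 for Notch2 and from -0.25 to 0.25 for Notch1. Rbpj had 1862, 1909 and 1736 with DMSO and 2200, 2246 and 1750 with Yoda1, which overlapped, with a log2 fold change of 0.16 (SE 0.12).

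**Figure D1:**
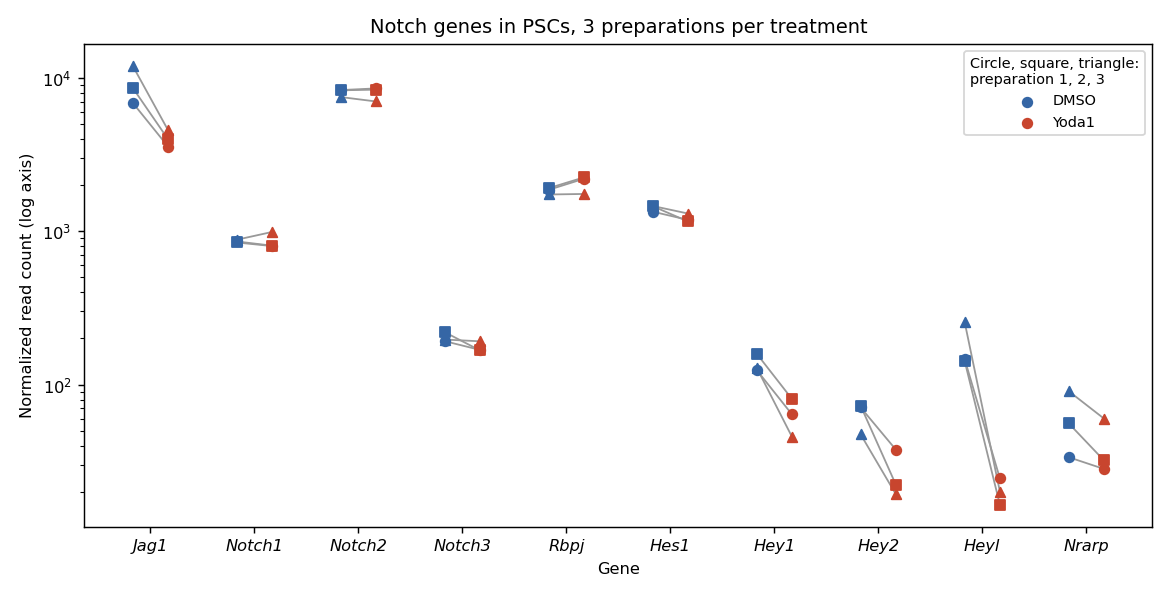
Normalized read counts of the 10 genes in PSCs on a log axis, with blue points for DMSO, red points for Yoda1, a marker shape per preparation and a line joining each preparation. The lines of Heyl drop most steeply, from 144 to 257 with DMSO to 16.5 to 24.5 with Yoda1, and those of Notch1 and Notch2 stay level.

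Of the 10 genes 8 had a negative and 2 a positive log2 fold change, with a median of -0.38, where the median over all 15145 genes tested was -0.01. In all 3 preparations 7 of the 10 were lower with Yoda1, which held for 29.4% of all genes tested, and the groups did not overlap for 6 of the 10, against 30.0% of all genes. A gene was called when its limma adjusted p was under 0.05 and its log2 fold change exceeded 1 in either direction, and 1.01% of all genes were called. Heyl alone of the 10 was called. In a model that also held the preparation as a block, Heyl, Hey1 and Jag1 were called, where 1.51% of all genes were. These shares describe the contrast that brought the genes into view, so nothing is read from them about the 10 genes. Without DMSO replicate 1 or 2 or any 1 of the Yoda1 libraries the call of Heyl was lost, while its log2 fold change stayed between -3.22 and -2.80 over all 6 such fits.

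**Figure D2:**
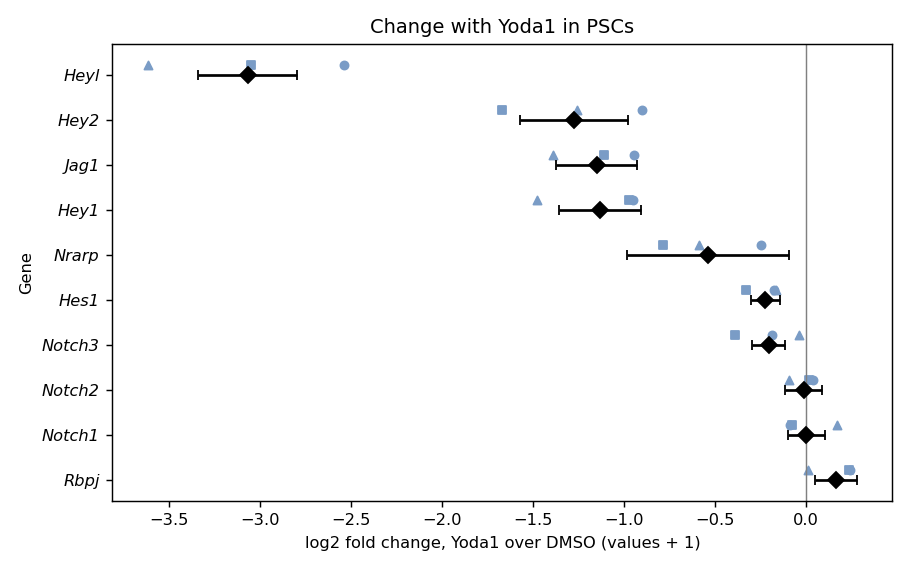
Log2 fold changes of the 10 genes with Yoda1 over DMSO in PSCs, with diamonds and bars for the fitted value and its SE and small blue symbols for preparations 1 (circle), 2 (square) and 3 (triangle). The 3 preparations of Heyl lie between -3.62 and -2.54, apart from the other 9 genes.

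Most markers of contractile cells were also lower with Yoda1. Of 9 mural cell markers 8 were tested, 6 had lower values with Yoda1, and 3 of them passed the threshold for a fall by limma: Acta2 (smooth muscle actin) with a log2 fold change of -1.70 (adjusted p = 0.038), Cnn1 (calponin) with -1.46 (adjusted p = 0.035) and Tagln (transgelin) with -1.22 (adjusted p = 0.020). The summed normalized read count of the mural list ran from 225102 to 245036 with DMSO and from 68792 to 102860 with Yoda1. That of the stellate and fibroblast list ran from 783098 to 886726 and from 426662 to 514868. Of its 10 tested genes 8 had negative and 2 positive log2 fold changes, with a median of -0.65. Col3a1 alone passed the threshold, with a log2 fold change of -1.19 (limma adjusted p = 0.011). Of the 9 endothelial markers, all tested by limma, 0 passed and 1 had an unadjusted p under 0.05 (3170 of 15145 for all genes). The endothelial list summed to between 4564 and 6698 with DMSO and to between 4077 and 4596 with Yoda1. The lower sum ran against most of its members, since 6 of the 9 had positive log2 fold changes, from -1.07 to 1.05 over the list with a median of 0.65. The duct and epithelial sums overlapped, at 82229 to 113748 and 78992 to 160090. Of the 8 genes on that list 6 had negative log2 fold changes, and 1, Spp1 (osteopontin), passed the threshold for a rise with a log2 fold change of 1.71 (limma adjusted p = 0.031). The part of these lists in the values of the 10 genes was not tested, and in bulk RNA fewer cells of a type and less RNA per cell cannot be told apart.

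The Notch pathway was also read through 57 further genes listed from general knowledge. Of these, 53 were in the PSC table and 52 could be tested. The list was made with earlier results of these data known, so its p-values in PSCs and livers are no independent evidence. By limma 0 of the 52 passed the threshold, 13 had an unadjusted p under 0.05 (3170 of 15145 for all genes), and edgeR and DESeq2 on the recovered reads each called 1, where they called 1.48% and 2.53% of all genes. Of the 52 genes 29 had positive and 23 negative log2 fold changes, with a median of 0.01. Lfng, a fringe glycosyltransferase that adds sugars to Notch receptors and shifts their choice of ligand, had normalized read counts of 545, 490 and 435 with DMSO and 289, 248 and 174 with Yoda1. These did not overlap, with a log2 fold change of -1.07 (SE 0.21, limma adjusted p = 0.066). With the preparation block, Lfng passed the threshold at an adjusted p of 0.041 in limma. The other fringe gene with enough reads, Rfng, was at a log2 fold change of 0.00 (limma adjusted p = 1.0), and Mfng was at 2.49 to 12.1 in all 6 libraries.

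Among the ligands, Dll1 had normalized read counts of 102, 109 and 202 with DMSO and 53.6, 61.7 and 94.6 with Yoda1. Each preparation was lower with Yoda1, and the log2 fold change was -0.94 (SE 0.34, limma adjusted p = 0.20, and 0.037 with the preparation block). Jag2 was level at a log2 fold change of 0.02 (limma adjusted p = 0.96). Dll4, the Delta ligand of endothelial tip cells, had 4.99, 4.49 and 39.4 with DMSO and 8.47, 20.6 and 21.6 with Yoda1, so 1 DMSO library decided its spread. Dll3, a Delta ligand that does not activate receptors on other cells, was not listed. Notch4, the receptor of endothelial cells, had 763, 904 and 1375 with DMSO and 652, 630 and 934 with Yoda1, and its groups overlapped. Its log2 fold change was -0.44 (limma adjusted p = 0.40). Tle2, a Groucho-type corepressor that Hes proteins recruit, had 61.1, 79.6 and 56.5 with DMSO and 95.9, 112 and 94.6 with Yoda1. It was higher in every Yoda1 library, with a log2 fold change of 0.62 (limma adjusted p = 0.10, and 0.048 with the preparation block). Of the 3 genes of receptor cleavage and the 7 of gamma-secretase, 0 had a limma adjusted p under 0.05, and the cleavage enzyme gene Adam10 was at -0.15 on the log2 scale (limma adjusted p = 0.41).

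**Figure D3:**
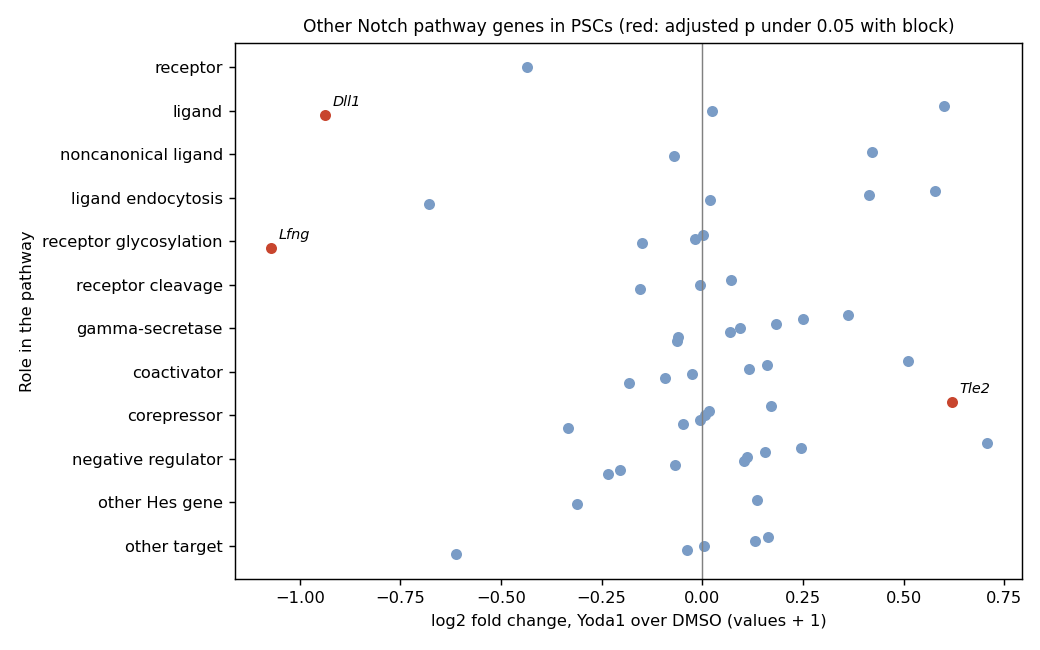
Log2 fold changes with Yoda1 in PSCs of the 52 tested pathway genes outside the 10, 1 point per gene, in rows by role. Red points, Lfng and Dll1 on the lower side and Tle2 on the higher side, had a limma adjusted p under 0.05 with the preparation block, and the other 49 blue points did not.

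Promoters of the 10 genes were looked up because RBPJ binds DNA at a known core that reads TGGGAA. That of Lfng was added after its values were seen, as Lfng had the lowest log2 fold change of the 52 pathway genes, and those of the other 51 were not searched one by one. On the other strand the same core reads TTCCCA. RefSeq promoters of GRCm38.p6 were matched for 7 of the 10 genes and not for Heyl, Hey1 or Hes1, which were not searched. The 250 bases before each listed start were searched on both strands. The 7 genes had 8 promoters in the table, with 2 for Rbpj, and the core stood in 3 of the 8, that of Hey2 and both of Rbpj, and in 21.6% of all 32851 promoters. The windows of Rbpj overlap and share 1 of these cores, so the 3 promoters are not separate counts. The sequences of Hey2 (chr10:30842784-30843033, minus strand), Jag1 (chr2:137116521-137116770, minus strand) and Lfng (chr5:140607091-140607340, plus strand) are shown 5′ to 3′ because they had the lowest log2 fold changes with Yoda1 among the matched genes and the fringe gene beside them, with the core in capitals.
Hey2: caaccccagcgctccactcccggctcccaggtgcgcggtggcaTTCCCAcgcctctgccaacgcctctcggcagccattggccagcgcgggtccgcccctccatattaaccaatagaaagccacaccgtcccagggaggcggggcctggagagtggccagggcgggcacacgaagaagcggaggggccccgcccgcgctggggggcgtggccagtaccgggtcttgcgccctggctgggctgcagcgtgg
Jag1: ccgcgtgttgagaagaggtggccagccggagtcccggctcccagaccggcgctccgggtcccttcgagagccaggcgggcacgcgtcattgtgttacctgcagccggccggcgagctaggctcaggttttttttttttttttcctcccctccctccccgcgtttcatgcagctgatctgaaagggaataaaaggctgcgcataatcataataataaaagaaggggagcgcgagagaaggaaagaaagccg
Lfng: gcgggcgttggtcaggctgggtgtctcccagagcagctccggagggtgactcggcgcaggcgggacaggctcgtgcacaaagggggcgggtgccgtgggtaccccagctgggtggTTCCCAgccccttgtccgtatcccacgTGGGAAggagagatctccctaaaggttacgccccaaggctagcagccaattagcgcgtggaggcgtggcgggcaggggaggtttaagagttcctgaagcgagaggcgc
In Hey2 the core began 207 bases before the start, as position -207. In Lfng it began at -135 on one strand and at -108 on the other, and the Jag1 window held none. A match in letters is a description and not a binding site, and a window without the letters says nothing about the factor.

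Levels were compared between genes per kilobase of exon. In DMSO-treated PSCs the order of normalized read counts per kilobase was Jag1 at 1569 ± 444 (SD, n = 3), Notch2 at 745 ± 43.5, Hes1 at 697 ± 33.4, Rbpj at 144 ± 7.01, Notch1 at 60.5 ± 1.26, Hey1 at 42.2 ± 5.76, Heyl at 35.7 ± 12.7, Notch3 at 25.2 ± 1.85, Nrarp at 23.3 ± 11.2 and Hey2 at 13.9 ± 3.09. The libraries overlapped for the neighbors Notch2 and Hes1, Hey1 and Heyl, Notch3 and Nrarp, and Nrarp and Hey2, and were separate for the other neighbors. With Yoda1, Heyl was last at 3.97 ± 0.78, overlapping Hey2 at 5.74 ± 2.15, and Jag1 at 691 ± 85.4 overlapped Notch2 at 740 ± 77.6. Of the 3 receptor genes Notch2 had the highest level in both treatments.

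In WT livers the scale was CPM (counts scaled to library size) per kilobase after TMM normalization. Hes1 led at 8.77 ± 0.015 (SD, n = 2), followed by Notch2 at 7.46 ± 0.84, Notch1 at 2.94 ± 0.75, Rbpj at 1.46 ± 0.015, Jag1 at 0.87 ± 0.21, Hey1 at 0.77 ± 0.12, Notch3 at 0.41 ± 0.091, Nrarp at 0.31 ± 0.030, Heyl at 0.30 ± 0.062 and Hey2 at 0.033 ± 0.029. The neighbors Jag1 and Hey1, and Nrarp and Heyl, overlapped, and the other neighbors were separate in the 2 WT livers. In the TRPV4-KO livers Hes1 stood below Notch2, at 3.81 ± 1.22 against 8.06 ± 0.42 (SD, n = 3). The 2 tables were normalized separately, so the values of PSCs and livers are not set against each other.

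**Figure D4:**
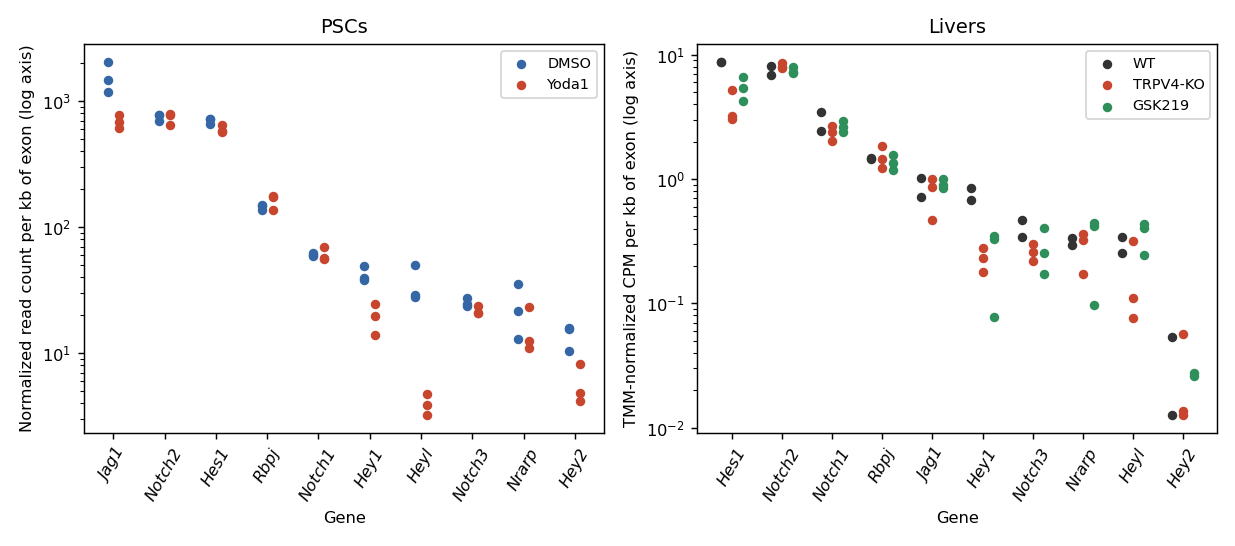
Levels of the 10 genes per kilobase of exon on log axes, in PSCs (left, normalized read count) and in livers (right, TMM-normalized CPM), 1 point per library, ordered by the mean of the DMSO or WT group. Heyl falls to the bottom of the PSC panel with Yoda1, and Hes1 and Hey1 are separate between WT and the other livers. The GSK219 liver with 0 counts of Hey2 is not drawn.

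The liver comparison of WT with TRPV4-KO mice asked how loss of the channel in the host changed the liver of tumor-bearing mice. Hes1 and Hey1 were higher in both WT livers than in all TRPV4-KO livers, and Notch1, Notch2 and Rbpj overlapped between the groups. After the filter on low counts 9 of the 10 genes could be tested. By edgeR 0 of the 9 passed the threshold and 2 had an unadjusted p under 0.05 (2586 of 15118 for all genes). DESeq2 called 1, Hes1. Of all genes 0.265% were called by edgeR and 3.37% by DESeq2. Since the liver values were also open when the 10 genes were picked, their p-values are no independent evidence.

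Hes1 had 289 and 306 counts in the WT livers, or 17.9 and 17.8 CPM. The TRPV4-KO livers had 98, 164 and 112 counts, or 6.20, 10.6 and 6.48 CPM. The WT livers were nearly equal and above the highest TRPV4-KO liver, and the log2 fold change of WT over TRPV4-KO was 1.20 (SE 0.27, edgeR adjusted p = 0.115). The adjusted p ranged from 0.0071 to 0.19 over the other settings that kept all livers, and Hes1 passed the threshold by DESeq2, without the filter on low counts, where 0.518% of all genes did, and with a term for Xist and Y-linked reads, where 2.15% did. Hey1 had 45 and 38 counts in WT and 12, 14 and 10 in TRPV4-KO livers, or 2.78 and 2.21 CPM against 0.76, 0.91 and 0.58 CPM. The groups were separate at these low counts, with a log2 fold change of 1.73 (SE 0.54, edgeR adjusted p = 0.18).

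Heyl had 21 and 30 counts in WT livers and 9, 6 and 28 in TRPV4-KO livers. Replicate 3 of TRPV4-KO lay within the WT range, and the log2 fold change was 0.81 (SE 0.58, edgeR adjusted p = 0.52) with it and 1.66 without it, still not called. Notch3 had 61 and 47 counts in WT and 33, 27 and 42 in TRPV4-KO livers, which did not overlap in CPM, with a log2 fold change of 0.64 (SE 0.38, edgeR adjusted p = 0.44). Notch1, Jag1, Nrarp, Rbpj and Notch2 overlapped between the groups, with log2 fold changes from -0.11 for Notch2 to 0.33 for Notch1 and edgeR adjusted p-values of 0.41 to 0.94. Groups without overlap were found for 3 of the 9 genes, against 33.2% of all genes tested. Hey2 had at most 4 counts in any liver and was not tested.

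The median log2 fold change of the 9 genes was 0.33, where that of all genes tested was -0.01. Marker sums of other cell types were set beside these values. The summed CPM of 6 macrophage and leukocyte markers ran from 457 to 526 in WT and from 136 to 286 in TRPV4-KO livers, and that of 12 stellate and fibroblast markers from 446 to 683 and from 170 to 361. Mural cell markers summed to 118 to 136 and 45.0 to 85.1 CPM and hepatic stellate cell markers to 342 to 393 and 132 to 314 CPM, with 6 of 7 and 7 of 7 tested genes at a positive log2 fold change. Duct and epithelial markers summed to 728 to 792 and 487 to 730 CPM, endothelial markers to 386 to 463 and 255 to 395 CPM, and both of these overlapped. Hepatocyte markers summed to 50244 to 60985 and 72381 to 92455 CPM. By edgeR 0 markers on these 7 lists passed the threshold. An unadjusted p under 0.05 was found for 5 of the macrophage, 7 of the stellate and fibroblast, 3 of the mural and 2 of the endothelial markers. The duct, hepatocyte and hepatic stellate lists had 1 each, and among all genes 2586 of 15118 had such a p. The part of these lists in the values of Hes1, Hey1 and Notch3 was not tested.

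Of the 57 further pathway genes 49 could be tested in the livers. Between WT and TRPV4-KO livers 0 passed the threshold by edgeR, 12 had an unadjusted p under 0.05 (2586 of 15118 for all genes), and DESeq2 called 1. Sox9, a Notch-responsive duct cell gene, had 12.2 and 18.6 CPM in WT and 6.01, 6.15 and 3.18 CPM in TRPV4-KO livers. The groups were separate, with a log2 fold change of 1.59 (SE 0.33, edgeR adjusted p = 0.10). The receptor-cleaving protease gene Adam10 had 57.5 and 51.8 CPM in WT and 37.7, 35.6 and 37.1 CPM in TRPV4-KO livers, also separate, with a log2 fold change of 0.57 (SE 0.13, edgeR adjusted p = 0.115). Sox9 and Adam10 had the smallest p-values of the list and were named with those values known. Lfng had 22.8 and 14.7 CPM in WT and 8.98, 5.18 and 13.5 CPM in TRPV4-KO livers, with a log2 fold change of 1.02 (SE 0.43, edgeR adjusted p = 0.28).

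**Figure D5:**
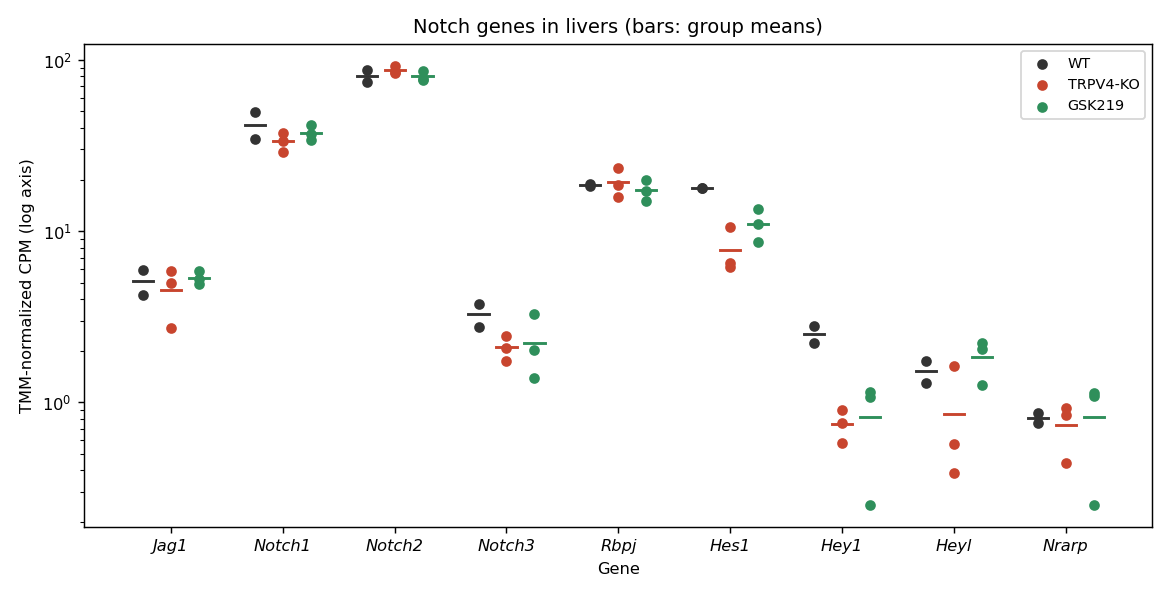
TMM-normalized CPM of 9 genes in livers on a log axis, 1 point per mouse and a bar at each group mean, with WT in black, TRPV4-KO in red and GSK219 in green. Both WT livers lie above all other livers for Hes1 (17.8 and 17.9 CPM) and for Hey1 (2.21 and 2.78 CPM), and the groups mix for Notch2 and Rbpj.

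WT livers were also compared with livers of WT mice given GSK219, which used the same 2 WT livers as the comparison above. By edgeR 0 of 15118 genes passed the threshold (0% called), 1242 had an unadjusted p under 0.05, and DESeq2 called 74 (0.511%). Of the 9 genes tested 0 passed by edgeR or DESeq2, and 2 had an unadjusted p under 0.05 by edgeR. Hes1 had 215, 182 and 144 counts in the GSK219 livers, or 13.5, 11.0 and 8.61 CPM. All lay below both WT livers, with a log2 fold change of WT over GSK219 of 0.69 (SE 0.27, edgeR adjusted p = 0.57). Hey1 had 4, 19 and 18 counts, or 0.25, 1.15 and 1.08 CPM, again below WT, with a log2 fold change of 1.58 (SE 0.53, edgeR adjusted p = 0.54). Heyl had 20, 34 and 37 counts and overlapped WT, with a log2 fold change of -0.27 (SE 0.56, edgeR adjusted p = 0.96).

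Notch3 had 22, 54 and 34 counts in the GSK219 livers, with a log2 fold change of 0.54 (SE 0.38, edgeR adjusted p = 0.79). The 5 genes Notch1, Notch2, Jag1, Nrarp and Rbpj overlapped WT, with log2 fold changes from -0.07 to 0.16. Groups without overlap were found for 2 of the 9 genes, against 27.3% of all genes. Of 49 pathway genes 0 passed by edgeR or DESeq2 and 5 had an unadjusted p under 0.05 by edgeR. Macrophage and leukocyte markers summed to 130 to 315 CPM and stellate and fibroblast markers to 212 to 334 CPM in the GSK219 livers, and mural cell markers to 72.4 to 117 and duct and epithelial markers to 548 to 689 CPM, all below the WT sums given above. Hepatocyte markers were above WT at 70756 to 80615 CPM. Hepatic stellate cell markers, at 206 to 344 CPM, and endothelial markers, at 300 to 416 CPM, overlapped WT, and the part of these lists was not tested.

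TRPV4-KO and GSK219 livers were compared directly. By edgeR 0 of the 9 genes passed the threshold, 0 had an unadjusted p under 0.05, and DESeq2 called 0, where 0.0992% of all genes were called by edgeR and 0.617% by DESeq2. The largest difference was that of Heyl, with 9, 6 and 28 counts in TRPV4-KO and 20, 34 and 37 counts in GSK219 livers. The groups overlapped through TRPV4-KO replicate 3. The log2 fold change of TRPV4-KO over GSK219 was -1.08 (SE 0.52, edgeR adjusted p = 0.87) and ran from -1.93 to -0.74 with a library left out. For Hes1 it was -0.51 (SE 0.25, edgeR adjusted p = 0.87), and for Hey1 -0.15 (SE 0.52, edgeR adjusted p = 1.0). Groups without overlap were found for 0 of the 9 genes, against 10.2% of all genes. Of 49 pathway genes 0 passed by edgeR, 4 had an unadjusted p under 0.05 (925 of 15118 for all genes), and DESeq2 called 1.

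The genes whose log2 values ran most like those of Heyl were listed by Pearson's r, as a description over libraries that share treatments and preparations. Over the 6 PSC libraries and 12436 genes these were Pcolce, Tmem123, Tnfrsf11b, Sh3glb1 and Tusc3, with r of 0.996 to 0.998. Among the 10 genes, Jag1 was closest to Heyl in PSCs with r of 0.947, and Notch2 was at 0.00. Over the 8 livers and 13221 genes the closest were Stra6l, Akap12, Irs2, Dmap1 and Cdk5rap2, with r of 0.964 to 0.979. There Jag1 was at -0.10 and Hes1 at 0.19, and Notch1 was the closest of the 10 genes at 0.51.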

How the data were processed

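RNA-Seq was performed on mouse livers and PSCs. For the livers the authors deposited raw counts of reads per gene, whose gene coordinates equal those of GRCm38 (GENCODE M21) for 98.3% of matched IDs, and 7 further columns, which fit none of the samples described, were set aside. The authors deposited for PSCs a normalized signal per gene, and the values showed it to be gene counts divided by a size factor per library, since 100% of 98886 values were whole multiples of a step per library (tolerance 0.02 reads). The submitters' processing notes name HISAT2 2.0.5 and Trim Galore, and the counting tool is not given in the sources used here. The deposited fold changes and p-values of the authors' own comparison were not used.

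PSC values were analyzed with limma 3.58.1 on log2(value + 1) for genes at 10 or more in at least 3 libraries (15145 genes). Liver counts were analyzed with edgeR 4.0.16 in R 4.3.3 by its quasi-likelihood test, robust, with the 8 livers in 1 model, TMM normalization and a minimum count of 10 (15118 genes). P-values were adjusted by Benjamini-Hochberg over all genes tested, and a gene was called below 0.05 when it also changed by more than 1 on the log2 scale. Alternatives were DESeq2 1.42.0, edgeR on the recovered reads, RLE normalization, pseudocounts of 0.1 and 10, no filter, no fold-change threshold, only the groups compared, a term for Xist and Y-linked reads, the replicate block, and leaving out each library. A limma fit with trend and robust variance was chosen after seeing the data. The steps were tested on simulated data. Read numbers show at most the counting error of reads and not that of molecules. No molecular identifiers are described in the sources used here.

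PSC replicate numbers stand for a preparation given both treatments, and same-numbered libraries deviated together with correlations over genes of 0.26 to 0.53. The labels do not say whether the preparations came from separate animals. Liver numbers did not pair mice (correlations of -0.54 to 0.61). The 10 genes and all lists were chosen with earlier results of these data known. Genes named were the 10, Notch4, the ligands, the fringe genes, pathway genes with an adjusted p under 0.05, leading markers, and the 5 genes most like Heyl. Tle2, named for its value with the block, Sox9, Adam10, Gfap, Lrat and Trpv4 were named outside this rule.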

Additional observations from a re-analysis of the deposited data

How the results depend on the processing

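The direction of all 10 genes in PSCs, and of all 9 tested genes between WT and TRPV4-KO livers, was kept under every alternative that kept all libraries. Low counts limit Heyl, Hey1 and Nrarp in livers (at most 45 counts) and Hey2 in PSCs, and 2 WT livers limit both comparisons that use them. Where a count moved, the cause was not tested.

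In PSCs 153 genes were called. DESeq2 called 376, limma with trend and robust variance 230 and no fold-change threshold 355, and leaving out 1 library gave 0 to 76. Of the 10 genes 1 was called (1.01% of all genes), 2 by edgeR (1.48%), 4 by DESeq2 (2.53%), 3 with the replicate block (1.51%), 3 with trend and robust variance (1.52%), and 0 to 1 with a library left out. As this contrast chose the 10 genes, nothing is read from these counts. Of the pathway genes 0 were called, and 1 by each of edgeR, DESeq2, the replicate block and trend and robust variance. The block on preparation called 229 genes in all.

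For WT against TRPV4-KO livers 40 genes were called. The count was 489 by DESeq2, 140 without the filter, 20 with only the groups compared, 429 with the replicate block, 325 with the Xist and Y-linked term, and 3 to 722 with a library left out. Of the 10 genes 0 were called, and 1 (Hes1) by DESeq2, without the filter and with the Xist and Y-linked term. Of the pathway genes 0 were called, 1 under each of the same 3 settings, 2 with the replicate block and 0 to 4 with a library left out. Log2 fold changes that turned with a library left out ran from -0.12 to 0.34 for Nrarp, -0.088 to 0.41 for Jag1, -0.22 to 0.00995 for Notch2 and -0.18 to 0.12 for Rbpj.

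Between WT and GSK219 livers 0 genes were called, 74 by DESeq2, 8 without the filter, 2 with only the groups compared, 9 with the replicate block, 4 with the Xist and Y-linked term and 0 to 2 with a library left out. The replicate block turned Heyl to 0.084, Nrarp to 0.38 and Notch2 to -0.018 on the log2 scale. Notch2, at 0.00, was also at -0.0054 by DESeq2, -0.0057 with RLE normalization and -0.034 without the filter. With a library left out the ranges were -0.45 to 0.27 for Nrarp, -0.35 to 0.15 for Jag1, -0.14 to 0.39 for Notch1 and -0.12 to 0.11 for Notch2.

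Between TRPV4-KO and GSK219 livers 15 genes were called, 93 by DESeq2, 38 without the filter, 34 with the Xist and Y-linked term and 8 to 79 with a library left out. Of the pathway genes 0 were called, 1 by DESeq2, 1 with the Xist and Y-linked term and 0 to 1 with a library left out. With a library left out the ranges were -0.57 to 0.16 for Hey1, -0.58 to 0.13 for Nrarp, -0.47 to 0.019 for Jag1, -0.34 to 0.29 for Notch3 and -0.015 to 0.28 for Rbpj. The replicate number in livers pairs no mice, so its block changes counts without testing a pairing.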
